A study of Homo sapiens with 22 samples.

Results

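The 35 genes described here encode the heat shock response regulator HSF1 and the main heat shock proteins and chaperones of the cytosol and the mitochondrial matrix. They were chosen by name, as a list of gene symbols, and all 35 were found among the 25244 genes measured in one experiment and the 25791 genes measured in the other. The list comprises 7 members of the HSP70 and HSP110 family, 5 J-domain proteins, 8 genes for HSP90 and its co-chaperones, HSPB1 and BAG3, the 8 subunits of the TRiC chaperonin, 4 mitochondrial chaperones and HSF1. The levels are read as 3 layers: an HSF1-inducible list of 14 members, the TRiC subunits, and the mitochondrial chaperones. The list holds HSPA1A, HSPA1B, HSPA4L, HSPA8, HSPH1, HSP90AA1, DNAJA1, DNAJB1, DNAJB4, HSPB1, BAG3, CHORDC1, AHSA1 and STIP1. It was drawn from general knowledge, and members outside it may be induced by HSF1 as well.

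Ls174T, an established human line of colon carcinoma with goblet-like features, was profiled by poly-A RNA sequencing in 2 experiments of 4 groups with 2 libraries each. In the HUWE1 experiment, pools of cells carrying a constitutive shRNA against the ubiquitin ligase HUWE1 (shHUWE1 cells), or an empty pLKO vector (control vector cells), received the HUWE1 inhibitor BI8622 (20 µM, 16 h) or the solvent DMSO. In the MIZ1 experiment, cells carrying a doxycycline-inducible shRNA against MIZ1, the transcription factor encoded by ZBTB17, were kept with doxycycline (1 µg/ml, 4 days, +Dox cells) or without it (-Dox cells) and received BI8622 or DMSO. The series asked how loss or inhibition of HUWE1 alters gene expression in these cells and whether MIZ1 takes part. All groups of the MIZ1 experiment carry the shRNA construct, so that -Dox cells are its control, and a group without the construct was not analysed here. Doxycycline itself and the shRNA it induces therefore cannot be told apart.

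Heat shock proteins bind unfolded polypeptides and help them to fold, to refold or to be degraded. HSF1, the transcription factor that controls their inducible part, is held inactive by chaperones in unstressed cells. When unfolded proteins accumulate it trimerises and binds heat shock elements, repeats of the letters GAA in alternating orientation, in the promoters of its target genes. Many tumour cells keep high levels of HSP70 and HSP90 in the absence of heat. Proteins that fold with difficulty pass from J-domain proteins to HSP70 and on to HSP90, and actin and tubulin are folded by TRiC, while a separate set of chaperones folds the proteins imported into mitochondria.

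The sequences that bear on these genes are the heat shock elements close to their transcription start sites. Windows from 250 bases before to 50 bases after the start were taken from RefSeq (GRCh38.p14), where 31 of the 35 members had at least 1. They were searched on both strands for GAANNTTCNNGAA, a heat shock element of 3 alternating units, and for its 2-unit parts GAANNTTC and TTCNNGAA, which overlap it. The 3-unit letters occurred in 7 of the 31 members, HSPA8, HSP90AA1, HSP90AB1, DNAJA1, DNAJB6, HSPD1 and CHORDC1, and in 0.608% of the 27305 genes with a window. Of the 14 HSF1-inducible members, all with a window, 4 held them, while HSP90AB1, DNAJB6 and HSPD1 are outside that list. Stretches of 4 members that hold them are printed to show the spacing of the units, which stand in capitals. Where the capitals begin with TTC, the same letters read on the other strand.
HSPA8, chr11:123062149-123062386, minus strand: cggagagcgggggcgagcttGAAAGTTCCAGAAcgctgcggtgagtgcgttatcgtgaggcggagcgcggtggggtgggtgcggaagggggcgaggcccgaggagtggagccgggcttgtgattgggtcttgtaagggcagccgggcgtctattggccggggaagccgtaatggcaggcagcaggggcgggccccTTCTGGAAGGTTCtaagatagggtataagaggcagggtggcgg
CHORDC1, chr11:90223057-90223139, minus strand: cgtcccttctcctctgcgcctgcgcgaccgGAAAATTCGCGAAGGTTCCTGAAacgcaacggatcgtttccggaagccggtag
DNAJA1, chr9:33025268-33025296, plus strand: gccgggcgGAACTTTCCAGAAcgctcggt
HSP90AB1, chr6:44247748-44247873, plus strand: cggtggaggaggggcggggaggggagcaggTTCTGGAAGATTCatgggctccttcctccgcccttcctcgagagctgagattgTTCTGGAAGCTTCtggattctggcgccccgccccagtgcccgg

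HSPA8 held the 3-unit letters 230 and 55 bases upstream of its start, CHORDC1 held 3 overlapping copies between 60 and 50 bases upstream, and the copy of DNAJA1 lay within the first bases of its transcript. Of the letters searched, each stretch of HSPA1A, HSPA1B and DNAJB1 shown next held only the 2-unit GAANNTTC, also in capitals. Units with a mismatch were not searched. GAANNTTC was found in 13 of the 31 members and in 8.21% of all genes with a window, and TTCNNGAA in 12 members and 9.46% of all genes.
HSPA1A, chr6:31815407-31815474, plus strand: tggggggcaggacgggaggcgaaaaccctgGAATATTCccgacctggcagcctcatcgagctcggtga
HSPA1B, chr6:31827603-31827670, plus strand: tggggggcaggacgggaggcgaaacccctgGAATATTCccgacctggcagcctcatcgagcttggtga
DNAJB1, chr19:14518407-14518504, minus strand: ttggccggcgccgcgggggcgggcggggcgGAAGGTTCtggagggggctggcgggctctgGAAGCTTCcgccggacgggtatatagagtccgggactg

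DNAJB6 is shown as a member that holds the 3-unit letters and whose RNA levels stayed close to those in DMSO.
DNAJB6, chr7:157336843-157336915, plus strand: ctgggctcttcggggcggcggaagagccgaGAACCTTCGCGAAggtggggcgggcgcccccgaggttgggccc
None of the 7 TRiC subunits with a window held the 3-unit letters, while 2 of them, TCP1 and CCT2, held GAANNTTC, and CCT4 held TTCNNGAA. HSPE1 and HSPD1 lie head to head on chromosome 2, with starts 105 bases apart on opposite strands, and the windows of both hold the same E-box, CACGTG, the sequence that MYC and related factors bind. HSPD1 also holds overlapping copies of the 3-unit letters, 245 and 240 bases upstream of its start. HSPA9 was the only other member with an E-box, so that 3 of the 31 members held one, near the 8.77% of all genes with a window. A match to such letters describes the sequence and is not evidence of binding.
HSPE1, chr2:197500327-197500378, plus strand: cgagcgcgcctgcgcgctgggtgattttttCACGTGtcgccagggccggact
HSPA9, chr5:138575402-138575450, minus strand: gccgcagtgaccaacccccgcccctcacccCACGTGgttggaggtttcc

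The level of a gene is given in CPM, read counts scaled to the size of the library, and is the mean of 2 libraries. The tables hold means over pairs of groups, from which the 4 group levels of each experiment were solved, and no value per library was used. The authors' own tests on the libraries were not used either, so no SD or test is given, and the spread between the 2 libraries of a group cannot be stated from these levels. A gene is called lower or higher where its group levels differ by at least 1.5-fold, and the share of all genes that do so in the same comparison, among those with at least 1 CPM in the higher group, is given as background. CPM is not corrected for transcript length, so levels are compared between groups and not between genes.

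The targeted genes check the labels. HUWE1 had 218 CPM in shHUWE1 cells against 420 CPM in control vector cells in DMSO, and 176 CPM in shHUWE1 cells against 460 CPM in control vector cells in BI8622, lower past the fold in both. ZBTB17 had 11.0 CPM in +Dox cells against 15.7 CPM in -Dox cells in DMSO, within the fold (log2 difference -0.52), and 11.4 CPM in +Dox cells against 22.6 CPM in -Dox cells in BI8622, past it (-0.99). All 9 markers of Ls174T cells were measured, with summed levels of 1625 to 2929 CPM over the 8 groups, and CDX2, which specifies intestinal epithelium, was present in all of them. Of 14 markers of fibroblasts, leukocytes and endothelial cells, 4 were measured beside shHUWE1 and 5 beside shMiz1, and no such marker list summed to more than 8.62 CPM in any group. The Ls174T markers were not level between groups: MUC2, the secreted mucin of goblet cells, had 343 CPM in shHUWE1 cells against 52.6 CPM in control vector cells in DMSO. With BI8622, 2 of the 9 markers were higher past the fold in shHUWE1 cells, 5 in control vector cells, 5 in +Dox cells and 5 in -Dox cells. MUC2 had 112 CPM with BI8622 against 47.3 CPM with DMSO in +Dox cells, and KRT8, a keratin of simple epithelia, had 1194 CPM with BI8622 against 723 CPM with DMSO there. CDX2 was the only one of the 9 lower past the fold, with 50.1 CPM with BI8622 against 102.7 CPM with DMSO in +Dox cells and 46.9 CPM with BI8622 against 95.4 CPM with DMSO in -Dox cells. The part of these moves in the values of the chaperone genes was not tested.

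With BI8622, heat shock and chaperone genes were lower as a group in all 4 kinds of cells, and the HSF1-inducible layer by the largest margin. The members and that layer were chosen with earlier results of these data known, so the order of the layers is a description only. In shHUWE1 cells 14 of the 35 members were lower by at least 1.5-fold, against 6.99% of all genes. In control vector cells 18 members were lower, against a background of 5.97%. In the MIZ1 experiment 25 members were lower in +Dox cells, against 11.0% of all genes, and 27 in -Dox cells, against 11.6%. In bulk RNA, less RNA per cell and fewer cells expressing a gene cannot be told apart. No member was higher by that fold in any of the 4 comparisons, although 6.77% of all genes were in shHUWE1 cells, 10.8% in control vector cells, 13.1% in +Dox cells and 15.8% in -Dox cells.

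The median log2 difference of the 35 members was -0.50 in shHUWE1 cells, -0.60 in control vector cells, -0.80 in +Dox cells and -0.99 in -Dox cells, beside medians of all genes between -0.030 and 0.042. A log2 difference of -1 is a 2-fold lower level. Of the 35 members, 33 lay below 0 in shHUWE1 cells, all but HSF1 and DNAJB4, and 32 in each of the other kinds of cells, where HSPA9 was above 0 as well. Among genes of at least 30 CPM, 4986 of 8881 lay below 0 in shHUWE1 cells and 4730 of 8977 in control vector cells. The same held for 4739 of 9247 in +Dox cells and 4663 of 9315 in -Dox cells. A 2-fold lower level was reached by 2 members in shHUWE1 cells, 5 in control vector cells, 16 in +Dox cells and 17 in -Dox cells. The share of all genes lower by at least 2-fold was 1.16% in shHUWE1 cells, 0.954% in control vector cells, 3.03% in +Dox cells and 3.54% in -Dox cells, and among genes of at least 30 CPM it was 0.743% in shHUWE1 cells, 0.780% in control vector cells, 3.11% in +Dox cells and 3.82% in -Dox cells. Among these genes, whose minimum all members reach, the share lower by at least 1.5-fold was 5.01% in shHUWE1 cells, 5.22% in control vector cells, 11.4% in +Dox cells and 12.7% in -Dox cells.

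**Figure D1:**
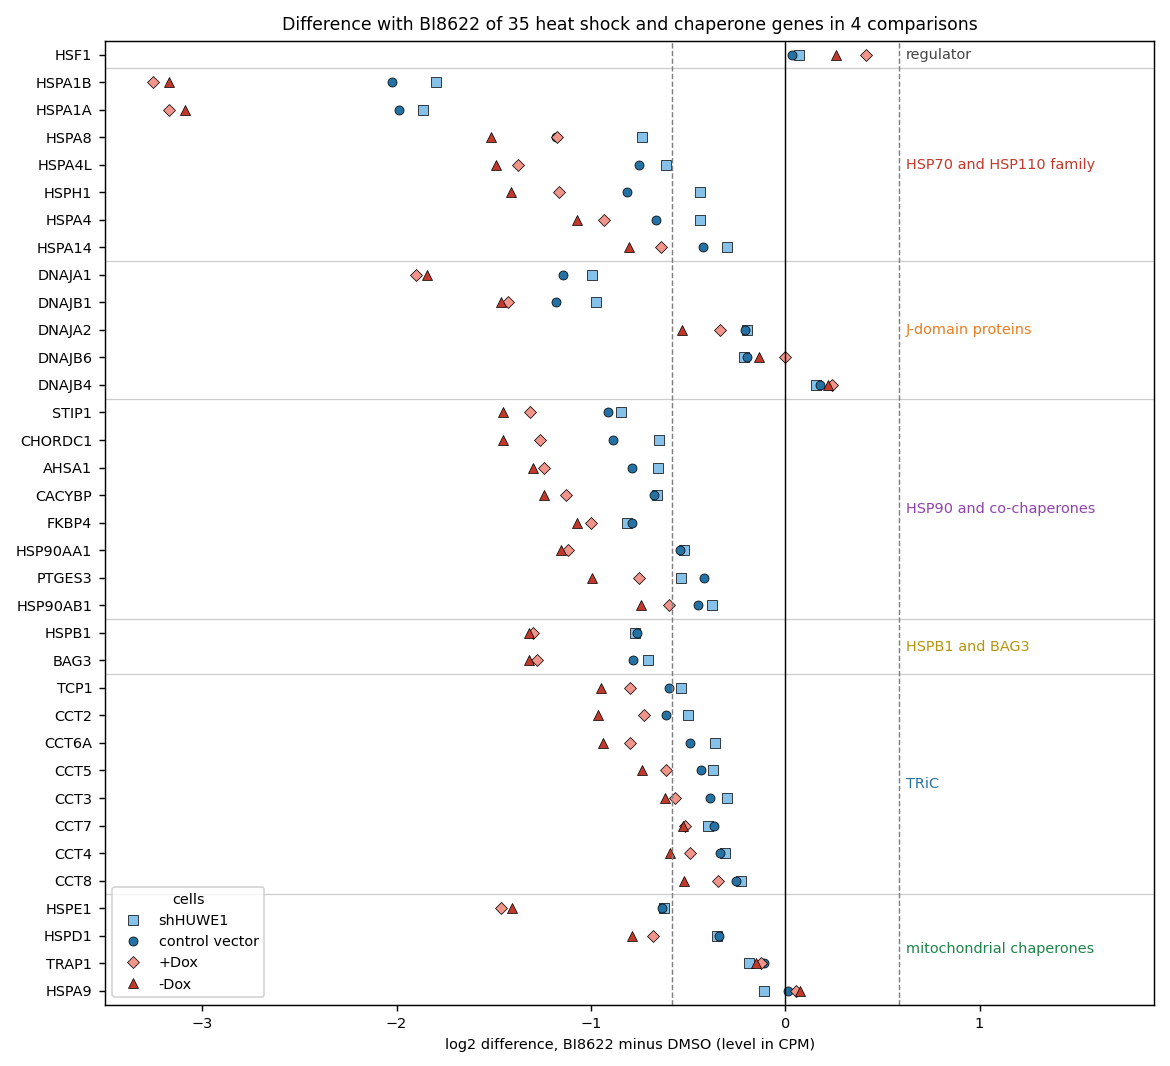
Log2 difference between BI8622 and DMSO (x axis, from group levels in CPM) for each of the 35 members (y axis, grouped by role) in shHUWE1 cells, control vector cells, +Dox cells and -Dox cells. Dashed lines mark a fold of 1.5 in either direction. HSPA1A and HSPA1B lie farthest to the left in all 4 kinds of cells. HSF1, HSPA9, DNAJA2, DNAJB4, DNAJB6, TRAP1, CCT7 and CCT8 lie within the dashed lines in all of them.

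HSF1 itself was not lower with BI8622. Its RNA had 58.8 CPM with BI8622 against 56.0 CPM with DMSO in shHUWE1 cells and 63.5 CPM with BI8622 against 61.9 CPM with DMSO in control vector cells. In the MIZ1 experiment it had 70.9 CPM with BI8622 against 53.1 CPM with DMSO in +Dox cells and 68.0 CPM with BI8622 against 56.7 CPM with DMSO in -Dox cells. The log2 differences were 0.071 in shHUWE1 cells, 0.037 in control vector cells, 0.42 in +Dox cells and 0.26 in -Dox cells, all above 0 and all within the fold of 1.5. HSF1 is regulated mainly through its trimerisation and phosphorylation, which RNA levels do not report.

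The largest differences of any member were those of HSPA1A and HSPA1B, the neighbouring genes on chromosome 6 that encode the stress-inducible cytosolic HSP70. HSPA1B had 101 CPM with BI8622 against 352 CPM with DMSO in shHUWE1 cells and 110.1 CPM with BI8622 against 448 CPM with DMSO in control vector cells. It had 48.7 CPM with BI8622 against 465 CPM with DMSO in +Dox cells and 58.4 CPM with BI8622 against 526 CPM with DMSO in -Dox cells, which leaves 10.5% and 11.1% of the DMSO level. HSPA1A showed the same order of groups.
HSPA1A had 58.7 CPM with BI8622 against 214 CPM with DMSO in shHUWE1 cells and 64.7 CPM with BI8622 against 257 CPM with DMSO in control vector cells, and 33.6 CPM with BI8622 against 302 CPM with DMSO in +Dox cells and 39.7 CPM with BI8622 against 338 CPM with DMSO in -Dox cells. Ordered from the lowest log2 difference among genes of at least 30 CPM, both genes were among the first 3 in each of the 4 comparisons, out of 8881 genes in shHUWE1 cells, 8977 in control vector cells, 9247 in +Dox cells and 9315 in -Dox cells. The coding sequences of HSPA1A and HSPA1B, 1926 bases each, differ at 4 positions, so most reads from one cannot be told from reads of the other, and their sum is the safer value. The summed level was 160.1 CPM with BI8622 against 566 CPM with DMSO in shHUWE1 cells and 175 CPM with BI8622 against 705 CPM with DMSO in control vector cells. It was 82.3 CPM with BI8622 against 767 CPM with DMSO in +Dox cells and 98.1 CPM with BI8622 against 864 CPM with DMSO in -Dox cells. The log2 difference of the sum was -1.82 in shHUWE1 cells, -2.01 in control vector cells, -3.22 in +Dox cells and -3.14 in -Dox cells.

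HSPA8 encodes the constitutive HSP70 of the cytosol, HSC70, and holds the 3-unit letters at the 2 places of the window printed above. It had 1254 CPM with BI8622 against 2092 CPM with DMSO in shHUWE1 cells and 1121 CPM with BI8622 against 2535 CPM with DMSO in control vector cells. It had 1158 CPM with BI8622 against 2615 CPM with DMSO in +Dox cells and 999 CPM with BI8622 against 2853 CPM with DMSO in -Dox cells. The log2 differences were -0.74 in shHUWE1 cells, -1.18 in control vector cells, -1.17 in +Dox cells and -1.51 in -Dox cells. HSPA8 was thus lower past the fold in all 4 kinds of cells, and less so in shHUWE1 cells and +Dox cells than in their controls.

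HSPH1, HSPA4 and HSPA4L are the HSP110 members, which release ADP from HSP70 and so allow it to release its client. HSPA4L had 95.4 CPM with BI8622 against 146 CPM with DMSO in shHUWE1 cells and 91.1 CPM with BI8622 against 154 CPM with DMSO in control vector cells, and 72.1 CPM with BI8622 against 187 CPM with DMSO in +Dox cells and 69.9 CPM with BI8622 against 196 CPM with DMSO in -Dox cells. HSPH1 had 40.4 CPM with BI8622 against 54.8 CPM with DMSO in shHUWE1 cells and 37.3 CPM with BI8622 against 65.6 CPM with DMSO in control vector cells, and 32.4 CPM with BI8622 against 72.7 CPM with DMSO in +Dox cells and 31.3 CPM with BI8622 against 83.4 CPM with DMSO in -Dox cells. HSPA4 had 252 CPM with BI8622 against 342 CPM with DMSO in shHUWE1 cells and 241 CPM with BI8622 against 381 CPM with DMSO in control vector cells, and 201 CPM with BI8622 against 384 CPM with DMSO in +Dox cells and 186 CPM with BI8622 against 389.6 CPM with DMSO in -Dox cells. HSPA4L was past the fold in all 4 kinds of cells, and HSPH1 and HSPA4 in 3, with log2 differences of -0.44 and -0.44 in shHUWE1 cells. HSPA14, a ribosome-associated relative of HSP70, had 50.1 CPM with BI8622 against 78.1 CPM with DMSO in +Dox cells and 48.1 CPM with BI8622 against 83.9 CPM with DMSO in -Dox cells and was lower past the fold in those cells. In the HUWE1 experiment HSPA14 had 46.2 CPM with BI8622 against 56.8 CPM with DMSO in shHUWE1 cells and 52.1 CPM with BI8622 against 69.8 CPM with DMSO in control vector cells.

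The 5 J-domain proteins, which deliver clients to HSP70 and stimulate its ATPase, were split. DNAJA1 and DNAJB1 were lower past the fold with BI8622 in all 4 kinds of cells, and DNAJA2, DNAJB4 and DNAJB6 in none. DNAJA1 had 136 CPM with BI8622 against 272 CPM with DMSO in shHUWE1 cells and 169 CPM with BI8622 against 373 CPM with DMSO in control vector cells. It had 105 CPM with BI8622 against 389.9 CPM with DMSO in +Dox cells and 118 CPM with BI8622 against 422 CPM with DMSO in -Dox cells, with log2 differences of -0.99 in shHUWE1 cells, -1.14 in control vector cells, -1.90 in +Dox cells and -1.84 in -Dox cells. DNAJB1, the classical HSP40 and a partner of HSP70 in resolving aggregates, had 90.3 CPM with BI8622 against 178 CPM with DMSO in shHUWE1 cells and 94.6 CPM with BI8622 against 214 CPM with DMSO in control vector cells. In the MIZ1 experiment DNAJB1 had 73.3 CPM with BI8622 against 197 CPM with DMSO in +Dox cells and 83.2 CPM with BI8622 against 229 CPM with DMSO in -Dox cells.
DNAJA2, the close relative of DNAJA1, had log2 differences of -0.20 in shHUWE1 cells, -0.21 in control vector cells, -0.34 in +Dox cells and -0.53 in -Dox cells. DNAJB4 was the only one of the 14 HSF1-inducible members above 0, with log2 differences of 0.16 in shHUWE1 cells, 0.18 in control vector cells, 0.24 in +Dox cells and 0.22 in -Dox cells. DNAJB6, which restrains the aggregation of polyglutamine proteins, had -0.21 in shHUWE1 cells, -0.20 in control vector cells, -0.0036 in +Dox cells and -0.14 in -Dox cells, and its window holds the 3-unit letters.

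HSP90 completes the folding of kinases and steroid receptors in the cytosol. HSP90AA1, its inducible isoform, had 1837 CPM with BI8622 against 2633 CPM with DMSO in shHUWE1 cells and 2081 CPM with BI8622 against 3025 CPM with DMSO in control vector cells. It had 1482 CPM with BI8622 against 3216 CPM with DMSO in +Dox cells and 1596 CPM with BI8622 against 3553 CPM with DMSO in -Dox cells. HSP90AB1, the constitutive isoform, had 1608 CPM with BI8622 against 2089.9 CPM with DMSO in shHUWE1 cells and 1888 CPM with BI8622 against 2576 CPM with DMSO in control vector cells. Both were within the fold of 1.5 in the HUWE1 experiment. In the MIZ1 experiment HSP90AB1 had 1689 CPM with BI8622 against 2556 CPM with DMSO in +Dox cells and 1643 CPM with BI8622 against 2751 CPM with DMSO in -Dox cells. There both isoforms were lower past the fold, HSP90AA1 with log2 differences of -1.12 in +Dox cells and -1.15 in -Dox cells, and HSP90AB1 with -0.60 in +Dox cells and -0.74 in -Dox cells.

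The co-chaperones of HSP90 were lower more often than HSP90 itself. STIP1, CHORDC1, AHSA1, CACYBP and FKBP4 were past the fold in all 4 kinds of cells. STIP1, which hands clients over from HSP70 to HSP90, had 115 CPM with BI8622 against 206 CPM with DMSO in shHUWE1 cells and 129 CPM with BI8622 against 242 CPM with DMSO in control vector cells, and 105 CPM with BI8622 against 261 CPM with DMSO in +Dox cells and 104 CPM with BI8622 against 285 CPM with DMSO in -Dox cells. CHORDC1, whose window holds 3 overlapping copies of the 3-unit letters, had 42.0 CPM with BI8622 against 65.8 CPM with DMSO in shHUWE1 cells and 47.5 CPM with BI8622 against 87.7 CPM with DMSO in control vector cells, and 48.4 CPM with BI8622 against 116 CPM with DMSO in +Dox cells and 49.1 CPM with BI8622 against 135 CPM with DMSO in -Dox cells. AHSA1, the activator of the HSP90 ATPase, had 113 CPM with BI8622 against 178 CPM with DMSO in shHUWE1 cells and 120.5 CPM with BI8622 against 208 CPM with DMSO in control vector cells, and 88.5 CPM with BI8622 against 209.5 CPM with DMSO in +Dox cells and 88.1 CPM with BI8622 against 217 CPM with DMSO in -Dox cells. These 3 co-chaperones belong to the HSF1-inducible layer. FKBP4, the immunophilin of steroid receptor complexes, had 160.1 CPM with BI8622 against 281 CPM with DMSO in shHUWE1 cells and 183 CPM with BI8622 against 316 CPM with DMSO in control vector cells, and 138 CPM with BI8622 against 276 CPM with DMSO in +Dox cells and 157 CPM with BI8622 against 329 CPM with DMSO in -Dox cells. CACYBP, which binds calcyclin and shares a domain with co-chaperones, had 88.2 CPM with BI8622 against 139 CPM with DMSO in shHUWE1 cells and 102 CPM with BI8622 against 163 CPM with DMSO in control vector cells, and 79.9 CPM with BI8622 against 174 CPM with DMSO in +Dox cells and 79.9 CPM with BI8622 against 189 CPM with DMSO in -Dox cells. Neither of these belongs to that layer, and PTGES3 does not either. PTGES3, the p23 protein that holds HSP90 closed on its client, had 256 CPM with BI8622 against 372 CPM with DMSO in shHUWE1 cells and 286 CPM with BI8622 against 382 CPM with DMSO in control vector cells, within the fold. It had 268 CPM with BI8622 against 452 CPM with DMSO in +Dox cells and 252 CPM with BI8622 against 501 CPM with DMSO in -Dox cells, past it.

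HSPB1 and BAG3 were lower past the fold in all 4 kinds of cells. HSPB1, the small heat shock protein HSP27 that holds unfolded proteins in a soluble state, had 73.0 CPM with BI8622 against 125 CPM with DMSO in shHUWE1 cells and 81.2 CPM with BI8622 against 138 CPM with DMSO in control vector cells, and 50.3 CPM with BI8622 against 124 CPM with DMSO in +Dox cells and 68.9 CPM with BI8622 against 172 CPM with DMSO in -Dox cells. BAG3, which links HSP70 and small heat shock proteins to selective autophagy, had 47.8 CPM with BI8622 against 78.0 CPM with DMSO in shHUWE1 cells and 48.5 CPM with BI8622 against 83.5 CPM with DMSO in control vector cells, and 41.1 CPM with BI8622 against 99.8 CPM with DMSO in +Dox cells and 43.1 CPM with BI8622 against 107 CPM with DMSO in -Dox cells. Their log2 differences were near each other within each kind of cell, at -0.77 and -0.70 in shHUWE1 cells, -0.76 and -0.78 in control vector cells, -1.30 and -1.28 in +Dox cells and -1.32 and -1.32 in -Dox cells.

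**Figure D2:**
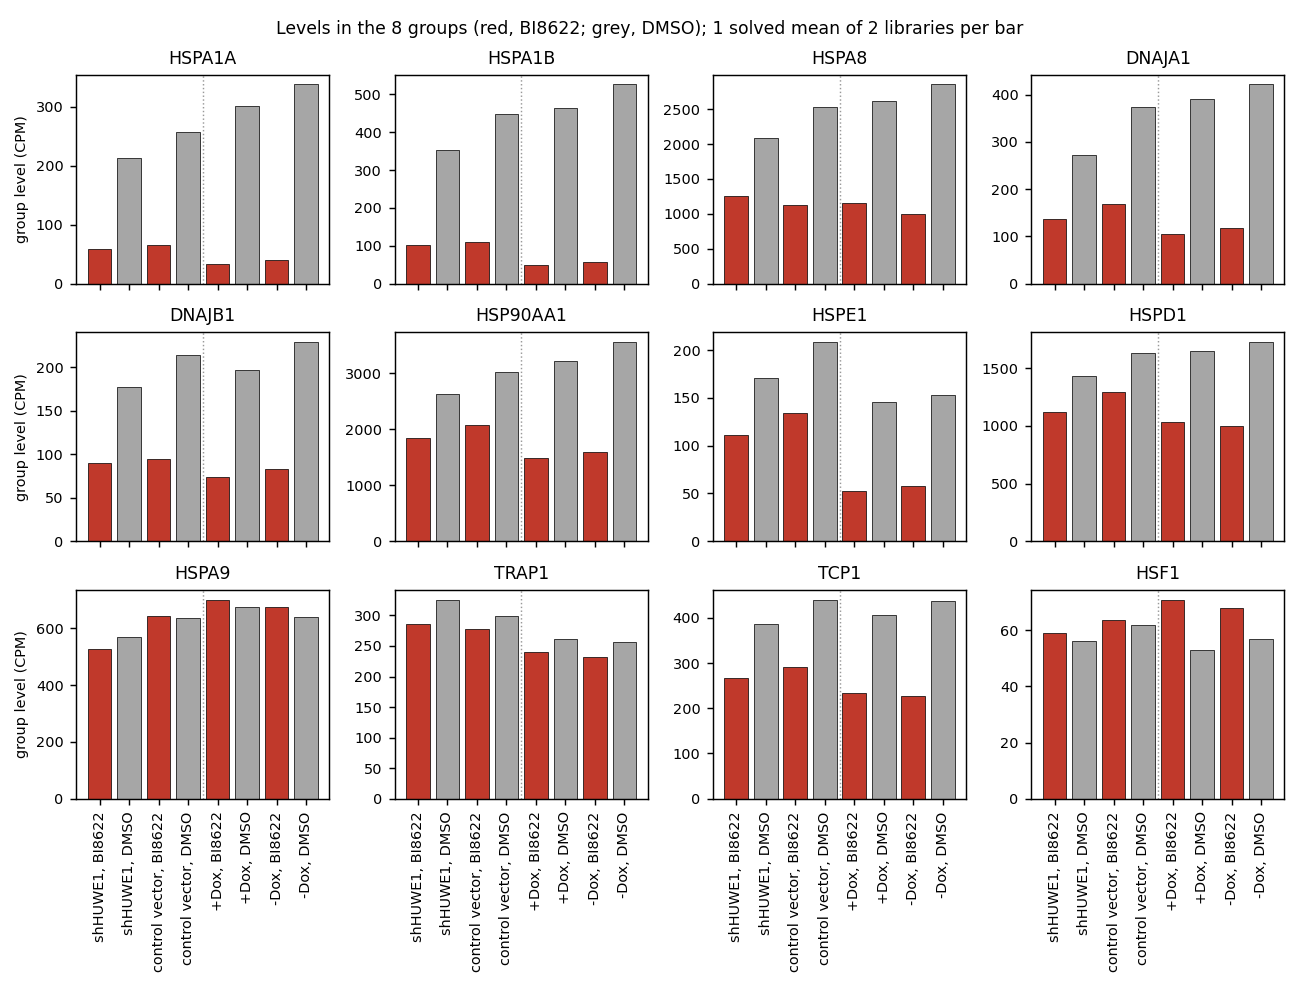
Solved group levels (y axis, CPM from 0, 1 mean of 2 libraries per bar and no error bar) of 12 members in the 8 groups (x axis), with BI8622 in red left of DMSO in grey, and a dotted line between the HUWE1 and MIZ1 experiments. The red bars of HSPA1A and HSPA1B are low in all 4 kinds of cells, while those of HSPA9, TRAP1 and HSF1 differ from their grey bars by less than 1.5-fold; each panel has its own scale.

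The 8 TRiC subunits lay on the same side of 0, with medians nearer to 0 than those of the HSF1-inducible list. All 8 lay below 0 in each of the 4 BI8622 comparisons, with medians of -0.37 in shHUWE1 cells, -0.41 in control vector cells, -0.59 in +Dox cells and -0.68 in -Dox cells. The number past the fold was 0 in shHUWE1 cells, 2 in control vector cells, 4 in +Dox cells and 6 in -Dox cells, and no subunit reached a 2-fold lower level. TCP1 had 267 CPM with BI8622 against 387 CPM with DMSO in shHUWE1 cells and 291 CPM with BI8622 against 440.1 CPM with DMSO in control vector cells, and 233 CPM with BI8622 against 406 CPM with DMSO in +Dox cells and 227 CPM with BI8622 against 438 CPM with DMSO in -Dox cells. CCT2 had 218 CPM with BI8622 against 309 CPM with DMSO in shHUWE1 cells and 221 CPM with BI8622 against 338 CPM with DMSO in control vector cells, and 228 CPM with BI8622 against 377 CPM with DMSO in +Dox cells and 197 CPM with BI8622 against 383 CPM with DMSO in -Dox cells. These were the only subunits lower past the fold in control vector cells. CCT6A had 248 CPM with BI8622 against 319.6 CPM with DMSO in shHUWE1 cells and 302 CPM with BI8622 against 425 CPM with DMSO in control vector cells, and 273 CPM with BI8622 against 475 CPM with DMSO in +Dox cells and 254 CPM with BI8622 against 485 CPM with DMSO in -Dox cells. CCT5 had 297 CPM with BI8622 against 385 CPM with DMSO in shHUWE1 cells and 329 CPM with BI8622 against 445 CPM with DMSO in control vector cells, and 268 CPM with BI8622 against 410.3 CPM with DMSO in +Dox cells and 254 CPM with BI8622 against 424 CPM with DMSO in -Dox cells. These 2 subunits were past the fold in both +Dox and -Dox cells only.
CCT3 had 402 CPM with BI8622 against 494 CPM with DMSO in shHUWE1 cells and 416 CPM with BI8622 against 543 CPM with DMSO in control vector cells, and 352 CPM with BI8622 against 522 CPM with DMSO in +Dox cells and 343 CPM with BI8622 against 526 CPM with DMSO in -Dox cells. CCT4 had 261 CPM with BI8622 against 323 CPM with DMSO in shHUWE1 cells and 287 CPM with BI8622 against 363 CPM with DMSO in control vector cells, and 269 CPM with BI8622 against 377 CPM with DMSO in +Dox cells and 250.2 CPM with BI8622 against 378 CPM with DMSO in -Dox cells. Both passed the fold in -Dox cells alone, where their log2 differences of -0.62 and -0.60 lie just beyond it. CCT7 had 288 CPM with BI8622 against 379 CPM with DMSO in shHUWE1 cells and 311 CPM with BI8622 against 402 CPM with DMSO in control vector cells, and 267 CPM with BI8622 against 381 CPM with DMSO in +Dox cells and 264 CPM with BI8622 against 380.4 CPM with DMSO in -Dox cells. CCT8 had 264 CPM with BI8622 against 308 CPM with DMSO in shHUWE1 cells and 281 CPM with BI8622 against 335 CPM with DMSO in control vector cells, and 276 CPM with BI8622 against 352 CPM with DMSO in +Dox cells and 256 CPM with BI8622 against 367 CPM with DMSO in -Dox cells. The subunits assemble into double rings in equal numbers, and in each kind of cell their log2 differences spanned a range of less than 0.5, with the narrowest spread in shHUWE1 cells, between -0.53 for TCP1 and -0.23 for CCT8.

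The mitochondrial chaperones differed among themselves. HSPE1, the cap of the matrix chaperonin, had 111 CPM with BI8622 against 171 CPM with DMSO in shHUWE1 cells and 134 CPM with BI8622 against 208 CPM with DMSO in control vector cells, and 52.9 CPM with BI8622 against 146 CPM with DMSO in +Dox cells and 57.9 CPM with BI8622 against 153 CPM with DMSO in -Dox cells. It was lower past the fold in all 4 kinds of cells, with log2 differences of -0.62 in shHUWE1 cells, -0.63 in control vector cells, -1.46 in +Dox cells and -1.41 in -Dox cells. HSPD1, the chaperonin itself and the gene that shares a promoter region with HSPE1, had 1123 CPM with BI8622 against 1432 CPM with DMSO in shHUWE1 cells and 1294 CPM with BI8622 against 1638 CPM with DMSO in control vector cells, and 1031 CPM with BI8622 against 1651 CPM with DMSO in +Dox cells and 999.7 CPM with BI8622 against 1729 CPM with DMSO in -Dox cells. Its log2 differences of -0.35 in shHUWE1 cells, -0.34 in control vector cells, -0.68 in +Dox cells and -0.79 in -Dox cells were smaller than those of HSPE1 in each kind of cell and past the fold in the MIZ1 experiment only. HSPA9, the HSP70 of the matrix, had 526 CPM with BI8622 against 568 CPM with DMSO in shHUWE1 cells and 641 CPM with BI8622 against 635 CPM with DMSO in control vector cells, and 700.3 CPM with BI8622 against 673 CPM with DMSO in +Dox cells and 674 CPM with BI8622 against 638 CPM with DMSO in -Dox cells. TRAP1, the mitochondrial HSP90, had 286 CPM with BI8622 against 326 CPM with DMSO in shHUWE1 cells and 278 CPM with BI8622 against 299.8 CPM with DMSO in control vector cells, and 239 CPM with BI8622 against 261 CPM with DMSO in +Dox cells and 232 CPM with BI8622 against 257 CPM with DMSO in -Dox cells. The log2 differences of HSPA9 and TRAP1 lay between -0.19 and 0.078, so that the matrix counterparts of HSP70 and HSP90 were within the fold in all 4 kinds of cells. Of their cytosolic counterparts, HSPA8 was lower past the fold in all 4 kinds of cells and HSP90AA1 in +Dox and -Dox cells only.

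Set side by side, the layers, chosen with earlier results known, kept 1 order in all 4 kinds of cells. The median log2 difference of the 14 HSF1-inducible members was -0.72 in shHUWE1 cells, -0.85 in control vector cells, -1.29 in +Dox cells and -1.45 in -Dox cells. Of these 14, 11 were lower past the fold in shHUWE1 cells, 12 in control vector cells and 13 in both +Dox and -Dox cells, and DNAJB4 was the exception each time, joined by HSP90AA1 in control vector cells and by HSP90AA1 and HSPH1 in shHUWE1 cells. Medians of the 4 mitochondrial chaperones were -0.27 in shHUWE1 cells, -0.22 in control vector cells, -0.40 in +Dox cells and -0.47 in -Dox cells, nearer to 0 than those of TRiC. The 21 members outside the HSF1-inducible list had medians of -0.36 in shHUWE1 cells, -0.42 in control vector cells, -0.62 in +Dox cells and -0.74 in -Dox cells. Past the fold were 3, 6, 12 and 14 of them, in that order of cells.

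Many of these genes have processed pseudogenes whose sequence is close to their own, and reads of the gene can be assigned to them. Only names made of a member's symbol, or CCT6 for CCT6A, with P and a number were counted. Pseudogenes named otherwise are left out. By this rule the tables hold 62 such pseudogenes for 16 of the members. They took 47.0% to 49.8% of the joint level of HSPE1 and its pseudogenes, 36.0% to 38.0% for HSPD1 and 31.9% to 32.7% for HSPA8 over the 8 groups, and HSPD1P1 alone reached 429 CPM. Adding the pseudogenes to their gene moved the BI8622 log2 difference by the most for CCT6A in -Dox cells, which had -0.79 with them and -0.94 without. For HSPE1 in control vector cells the value was -0.70 with its pseudogenes and -0.63 without.

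Of 34 other chaperone and co-chaperone genes, 33 were found in each experiment, and 32 reached 1 CPM in the comparison in control vector cells. With BI8622, 2 were lower past the fold in shHUWE1 cells, 3 in control vector cells, 6 in +Dox cells and 7 in -Dox cells. In that order of cells 0, 1, 3 and 3 were higher. The all-gene shares were 6.99%, 5.97%, 11.0% and 11.6% lower and 6.77%, 10.8%, 13.1% and 15.8% higher. The count of lower genes in shHUWE1 cells is near its share, and nothing is read from it. The median log2 difference of the other chaperone genes was -0.25 in shHUWE1 cells, -0.22 in control vector cells, -0.30 in +Dox cells and -0.27 in -Dox cells. FKBP5, an immunophilin of HSP90 that steroid hormones induce, had 29.3 CPM with BI8622 against 59.3 CPM with DMSO in shHUWE1 cells and 29.9 CPM with BI8622 against 59.8 CPM with DMSO in control vector cells. It had 22.2 CPM with BI8622 against 63.7 CPM with DMSO in +Dox cells and 20.6 CPM with BI8622 against 65.3 CPM with DMSO in -Dox cells. HSPA13, an HSP70-like protein of the microsomes, was higher instead in 3 of the 4 kinds of cells. It had 75.2 CPM with BI8622 against 52.3 CPM with DMSO in shHUWE1 cells, within the fold, and 99.7 CPM with BI8622 against 55.2 CPM with DMSO in control vector cells. It had 173 CPM with BI8622 against 57.6 CPM with DMSO in +Dox cells and 167 CPM with BI8622 against 56.2 CPM with DMSO in -Dox cells. HSPA2, best known from the testis, was also past a 2-fold lower level in both +Dox and -Dox cells, but never exceeded 2.09 CPM.

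In the absence of the inhibitor, depletion of HUWE1 left all 35 members within the fold of 1.5. The background of this comparison, shHUWE1 against control vector cells in DMSO, was 1.78% of genes lower and 4.14% higher, but 0.393% lower and 0.416% higher among genes of at least 30 CPM, a level that all members reach. At those shares a count of 0 in 35 genes is near the background, and nothing is read from it. The median log2 difference of the members was -0.19, against 0.017 for all genes. Below 0 lay 33 of the 35, against 4300 of 8659 genes of at least 30 CPM. DNAJA1 was the lowest member, with 272 CPM in shHUWE1 cells and 373 CPM in control vector cells, a log2 difference of -0.46. CHORDC1 had 65.8 CPM in shHUWE1 cells and 87.7 CPM in control vector cells (-0.41), and CCT6A had 319.6 CPM in shHUWE1 cells and 425 CPM in control vector cells (-0.41). The 5th percentile of genes of at least 30 CPM was -0.259. Below it lay DNAJA1, CHORDC1, CCT6A, HSPA1B, HSP90AB1, HSPA14, HSPE1, HSPA8, DNAJB1, HSPA1A and, at -0.260, HSPH1. The remaining members lay above it. The 14 HSF1-inducible members were all below 0, with a median of -0.25, and the 8 TRiC subunits were too, with a median of -0.15. TRAP1 was highest, at 326 CPM in shHUWE1 cells against 299.8 CPM in control vector cells.

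Depletion and inhibitor together, shHUWE1 cells in BI8622 against control vector cells in DMSO, left 22 members lower past the fold, with a background of 8.85%, and none higher, where 10.7% of all genes were. Among genes of at least 30 CPM the background was 8.75% lower and 6.22% higher. This comparison uses groups of the comparisons above and is not independent of them. The median of the members was -0.69, and 7 of them, HSPA1A, HSPA1B, HSPA8, DNAJA1, DNAJB1, CHORDC1 and STIP1, were lower by at least 2-fold, as were 1.75% of all genes. HSPA1B had 101 CPM in shHUWE1 cells with BI8622 against 448 CPM in control vector cells with DMSO, a log2 difference of -2.14. All 7 HSP70 and HSP110 members passed the fold here, and DNAJB4 was the only member above 0, at 0.055. Of genes of at least 30 CPM, 4755 of 8962 lay below 0.

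**Figure D3:**
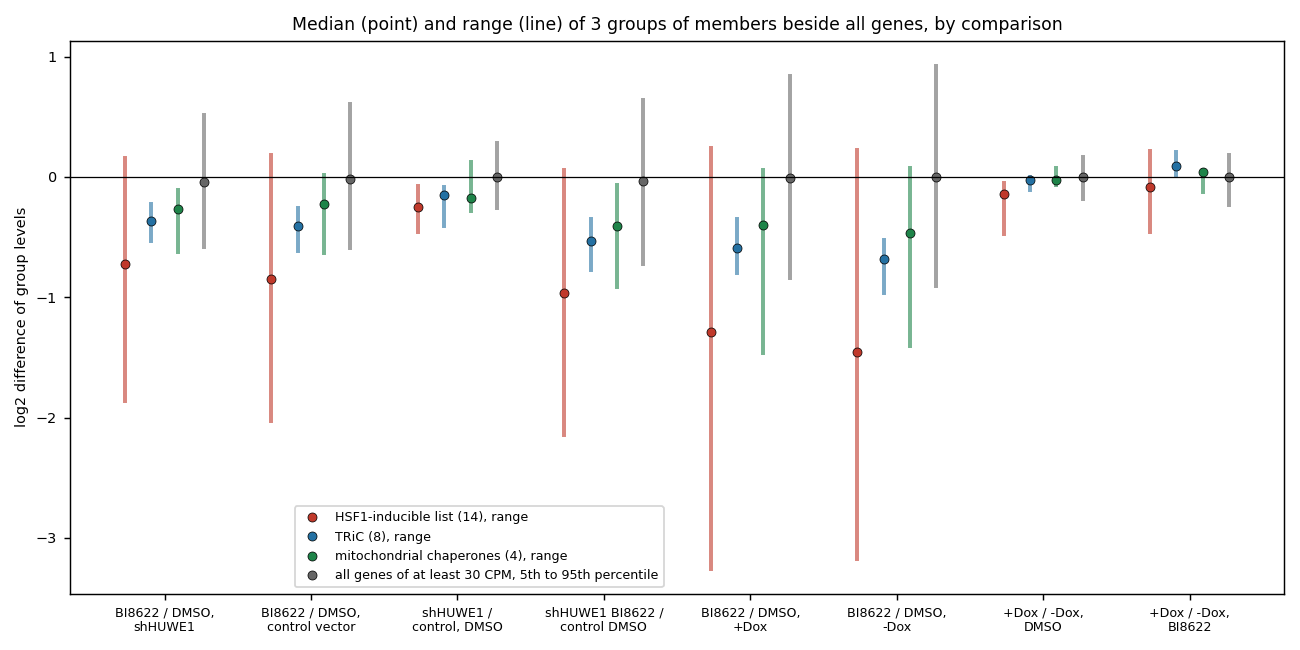
Median (points) and full range (lines) of the log2 difference of group levels (y axis) for the HSF1-inducible list, TRiC and the mitochondrial chaperones in all 8 comparisons (x axis), beside all genes of at least 30 CPM, whose grey line runs from the 5th to the 95th percentile. The order of the 3 medians is the same in the 4 comparisons of BI8622 with DMSO. All medians lie within 0.25 of 0 where shHUWE1 and control vector cells, or +Dox and -Dox cells, are compared in 1 treatment.

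In +Dox against -Dox cells all 35 members likewise stayed within the fold, in DMSO (background 1.53% lower and 2.32% higher) and in BI8622 (2.21% lower and 1.78% higher). Doxycycline and the MIZ1 shRNA cannot be told apart here, and ZBTB17 itself was within the fold in DMSO. Among genes of at least 30 CPM the background was 0.0692% lower and 0.104% higher in DMSO, and 0.138% lower and 0.0918% higher in BI8622, so these counts of 0 are near it too. In DMSO the median of the members was -0.10, and 31 of 35 lay below 0, against 4415 of 8666 genes of at least 30 CPM. In BI8622 the median of the members was 0.041, and 12 lay below 0, against 4466 of 8713 genes. The medians of those genes were -0.0023 in DMSO and -0.0028 in BI8622. HSPB1 was the lowest member in both, with 124 CPM in +Dox cells against 172 CPM in -Dox cells in DMSO and 50.3 CPM in +Dox cells against 68.9 CPM in -Dox cells in BI8622. Its log2 differences of -0.48 in DMSO and -0.45 in BI8622 lay below the 5th percentile of genes of at least 30 CPM, which was -0.18 in DMSO and -0.23 in BI8622. In BI8622 all 8 TRiC subunits lay above 0, between 0.015 for CCT7 and 0.21 for CCT2, whereas 7 of the 8 lay below 0 in DMSO. HSPA8 also differed in sign, with 2615 CPM in +Dox cells against 2853 CPM in -Dox cells in DMSO and 1158 CPM in +Dox cells against 999 CPM in -Dox cells in BI8622.

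How the BI8622 response differed with the HUWE1 shRNA, or with doxycycline and the MIZ1 shRNA, was read from the difference of 2 responses, which share no libraries. The response in shHUWE1 cells minus that in control vector cells was above 0 for 26 of the 35 members, with a median of 0.062 beside -0.026 for all genes of at least 30 CPM. HSPA8 had the largest such difference, 0.44, and HSPH1 followed with 0.38, both beyond the 95th percentile of all genes, 0.19, as were CHORDC1, HSPA1B, HSPA4 and DNAJB1 at up to 0.23. At the other end HSPA9 had -0.13. For HSPA8 the DMSO level was lower in shHUWE1 cells (2092 CPM) than in control vector cells (2535 CPM), while the BI8622 level was higher, with 1254 CPM in shHUWE1 cells and 1121 CPM in control vector cells.

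The response in +Dox cells minus that in -Dox cells was above 0 for 30 of the 35 members, with a median of 0.11 beside -0.0029 for all genes. The all-gene share above 0 was not counted for this difference or the one with the HUWE1 shRNA. Both all-gene medians lay below 0. HSPA8 was again at the top, with 0.34, and HSPH1, PTGES3 and CCT2 followed beyond the 95th percentile of 0.20 as well, and HSPA1A was lowest, with -0.082. Across the 35 members, the responses in shHUWE1 and control vector cells had a Spearman correlation of 0.94 and a Pearson correlation of 0.97. For +Dox and -Dox cells the correlations were 0.97 and 0.99. These values describe the order of genes and are not a test, since genes are not independent replicates. These differences of responses were not tested, since 1 mean per group was used.

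**Figure D4:**
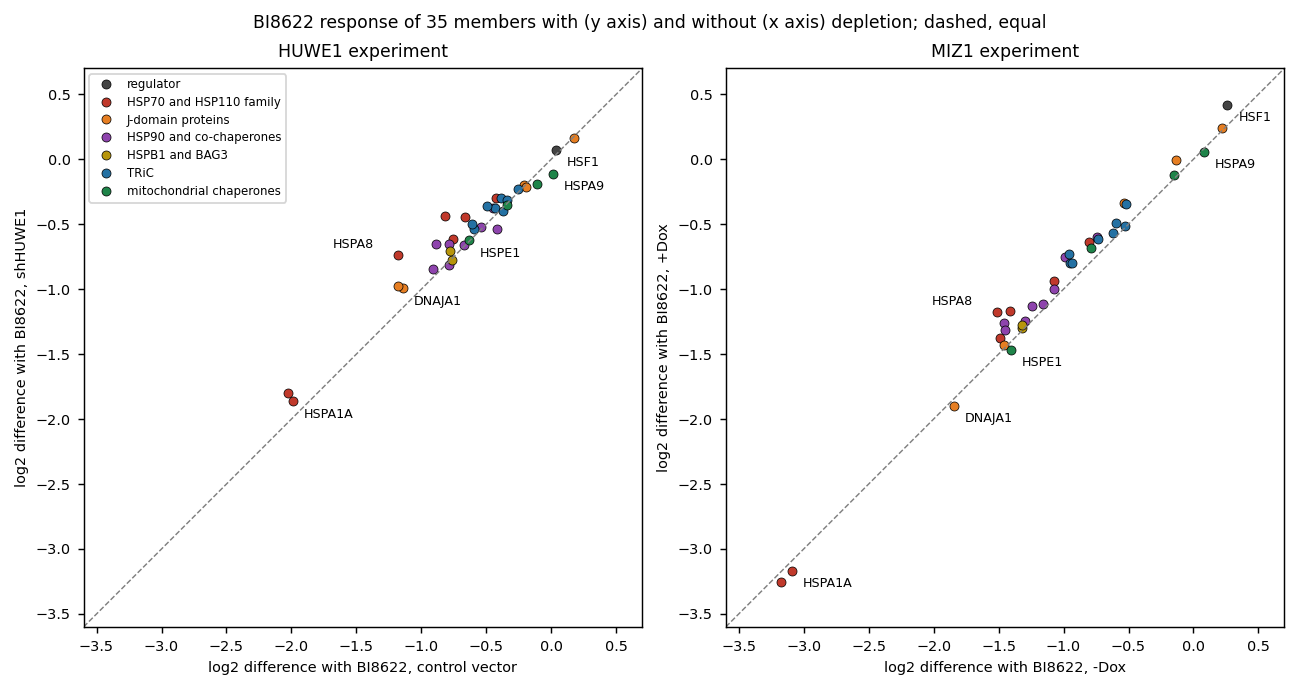
Log2 difference with BI8622 of the 35 members in shHUWE1 cells (y axis) and control vector cells (x axis), left, and in +Dox cells (y axis) and -Dox cells (x axis), right, coloured by role. Points above the dashed line had a response nearer to 0 or more positive in shHUWE1 cells (left) or +Dox cells (right). These were 26 of 35 on the left and 30 of 35 on the right. HSPA8 lies farthest above the line in both panels.

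The BI8622 differences were larger in the MIZ1 experiment than in the HUWE1 experiment, although the dose and time on the labels are the same. This was not particular to the members. With BI8622, the 5th and 95th percentiles of genes of at least 30 CPM were -0.59 and 0.61 in control vector cells. In -Dox cells they were -0.91 and 0.92. The response in -Dox cells minus that in control vector cells was below 0 for 31 of the 35 members, with a median of -0.38 and a lowest value of -1.15 for HSPA1B. HSF1 was highest, with 0.22. All genes of at least 30 CPM had a median of -0.019 and lay between -0.47 and 0.42 at the 5th and 95th percentiles of the same difference. The all-gene share below 0 was not counted. The tables of the experiments were normalised separately, and the cell lines carry different constructs, so experiment and construct cannot be told apart here. The order of the members was nearly the same in both, with a Spearman correlation of 0.96.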

How the data were processed

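Reads had been mapped by the authors to the hg19 genome (Bowtie 0.12.8, default parameters), and the authors ran edgeR on each pair of groups. CASAVA and FastQC are named as well. Not given in the sources used here were the way the authors assigned reads to genes, the authors' edgeR version and the RNA kit of each library. Deposited tables hold, for each pair of groups, a mean log2 CPM over the libraries of both groups, made by the authors with edgeR, beside the log2 fold changes, p-values and adjusted p-values of the authors' own comparisons, which were not used. The depth of each library is unknown from these tables, so no interval was computed.

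The mean log2 CPM values were put on the linear scale. The mean of a pair was taken as the average of its 2 groups, and the pairs form a closed triangle of groups. The 4 group levels of an experiment then follow from 4 pair means (HUWE1 experiment) or by least squares from 5 (MIZ1 experiment). In the MIZ1 experiment, 2 routes to the same level differed by a median of 0.0028 on the log2 scale over 9468 genes, and by at most 0.013 over the members. In the HUWE1 experiment 4 pair means give 4 levels, so there is no second route to compare. On data simulated with pair means that are such averages, the solution returned the group levels. That outcome follows from the algebra and does not test whether the authors' means are such averages. Differences are log2 ratios of group levels without a pseudocount, and a fold of 1.5 is descriptive.

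The members, the HSF1-inducible list, the 34 other chaperone genes and the markers were chosen with earlier results of these data known. By the rule for named genes, all 35 members may be named, by role, with values in every group for HSF1, HSPA1A, HSPA1B, HSPA8, HSPH1, DNAJB1, BAG3, HSPB1, the HSP90, TRiC and mitochondrial genes and for any other member past 1.5-fold in a BI8622 comparison, and other chaperone genes only past 2-fold. Promoter windows and coding sequences came from RefSeq (GRCh38.p14) and GENCODE 44 (GRCh37). The sources used here do not say if a group's 2 libraries are from separate cultures. Python 3.11.15, numpy 2.4.6, pandas 2.3.3 and matplotlib 3.10.9 were used. The 6 ChIP sequencing libraries were not analysed here. Alternatives were another fold, centring, level minimum, weighting and pseudocount.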

Additional observations from a re-analysis of the deposited data

How the results depend on the processing

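No paired analysis was possible because no value per library was used, and leaving out a replicate could not be run for the same reason. With a fold of 2 in place of 1.5, the members lower with BI8622 numbered 2 in shHUWE1 cells, 5 in control vector cells, 16 in +Dox cells and 17 in -Dox cells, and 7 in shHUWE1 cells with BI8622 against control vector cells with DMSO, against all-gene shares of 1.16%, 0.954%, 3.03%, 3.54% and 1.75%. Centring on the median of all genes, a minimum of 5 CPM, weighting of the pair means and a pseudocount of 1 CPM left each count of members within 1.5 times its value, with 13 members lower in shHUWE1 cells after centring. The pseudocount lowered the all-gene share of lower genes with BI8622 to 3.96% in shHUWE1 cells and 3.63% in control vector cells. The shares in the comparisons of cells within 1 treatment moved more. In shHUWE1 against control vector cells in DMSO the share was 0.431% with the pseudocount and 0.593% with the minimum of 5 CPM, against 1.78%. In +Dox against -Dox cells it was 0.203% and 0.195% in DMSO, against 1.53%, and 0.557% and 0.578% in BI8622, against 2.21%. With a fold of 2 these 3 shares were 0.169%, 0.163% and 0.279%. The alternatives chosen after seeing the data were equal totals of the pair means, subtraction of the prior, the MIZ1 experiment solved without the +Dox pair of BI8622 and DMSO, leaving out HSPA1A and HSPA1B, and background shares over genes of at least 30 CPM. The first 4 also left each count within 1.5 times. Without HSPA1A and HSPA1B the median of the HSP70 and HSP110 family in shHUWE1 cells was -0.44, against -0.61 with them, and no other median of a role group moved by more than 0.1. No count of members higher past the fold was above 0 under any alternative. Without values per library, depth and replicate spread set a limit that cannot be stated, and a difference near the fold, such as that of CCT3 and CCT4 in -Dox cells, may fall on either side of it.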
